A study of Mus musculus with 6 samples.

Results

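The 10 genes described here carry the MHC class I antigen presentation pathway: Nlrc5, Tap1, Tap2, Tapbp, Psmb8, Psmb9, Psmb10, H2-K1, H2-D1 and B2m. They were taken by symbol from a table of 32061 gene IDs, where each symbol had a row, and all 10 had enough counts to be among the 12949 genes tested. Polyadenylated RNA was read from mouse hepatocytes freed by collagenase perfusion. The senescent group held 3 samples from AhCre+Mdm2fl/fl mice and the healthy group 3 samples from AhCre- mice of unstated Mdm2 genotype. All mice, 10 to 12 weeks old, had been given β-naphthoflavone at 20 mg/kg for 48 h, an agent that switches on the AhCre transgene through its Cyp1a1 promoter, so that the inducer was shared. The labels differed in the transgene and named the Mdm2fl/fl genotype for the senescent group only. Presence of Cre and loss of Mdm2 cannot be told apart, and that promoter is not restricted to hepatocytes. The sources used here give neither the mouse strain nor its MHC haplotype. The labels do not tie a sample to 1 animal, and p-values therefore reflect only how far these 6 samples spread, which may be technical.

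Class I molecules show fragments of a cell's own proteins to CD8 T cells. The proteasome cuts proteins into peptides, and interferon-gamma replaces its constitutive catalytic subunits by those of the immunoproteasome, encoded by Psmb8, Psmb9 and Psmb10. The transporter made of the Tap1 and Tap2 products pumps peptides into the endoplasmic reticulum, where tapasin, from Tapbp, loads them onto a heavy chain (H2-K1 or H2-D1) paired with beta-2 microglobulin (B2m). Nlrc5 encodes the class I transactivator, which joins RFX, CREB/ATF and NF-Y proteins at a conserved promoter module of class I genes. Human TAP1 is known as a gene that p53, the factor held low by Mdm2, can switch on.

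In senescent hepatocytes the transactivator gene Nlrc5 rose 3.83-fold and the transporter gene Tap1 3.55-fold, while Psmb10 fell to 0.499 of its healthy level. Tapbp and Psmb8 fell by smaller amounts. The heavy chain genes, B2m, Tap2 and Psmb9 were not called. Thus 2 members rose, 3 fell and 5 were not called, that is 50% called, at a Benjamini-Hochberg adjusted p under 0.05 in edgeR's quasi-likelihood test. Of all genes tested 41.1% were called, 20.4% higher and 20.7% lower, so the share among the members was near the background, and their median log2 fold change was -0.04 against 0.01 for all tested genes. Called and at least 2-fold higher were 2 of the 10, against 10.4% of all tested genes. By size, the fold changes of Nlrc5 and Tap1 lay at the 95.5th and 95.0th percentile of all tested genes and that of Psmb10 at the 7.44th.

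Total counts were 29992707 to 32210591 in senescent and 28799392 to 33267299 in healthy libraries. Values are CPM, counts scaled to library size by TMM, a method that takes most genes as unchanged (mean ± SD, n = 3 libraries a group). A log2 fold change is the senescent level minus the healthy one and carries its SE. As a check of the labels, Mdm2 had 463 to 501 CPM in senescent and 19.0 to 22.7 CPM in healthy libraries; the count covers the whole gene and does not check the deletion. The p53 target Cdkn1a, a cell cycle inhibitor gene, had 653 to 773 CPM in senescent and 21.3 to 54.3 CPM in healthy libraries. The 11 hepatocyte markers summed to 79249 to 94952 CPM in senescent and 132385 to 148121 CPM in healthy libraries. Alb was first among them, with 51520 ± 3860 CPM in senescent and 90316 ± 9846 CPM in healthy hepatocytes. By edgeR 7 of the 11 were called lower and 0 higher, against 20.7% of all tested genes called lower. The 4 not called were Apob, Cps1, Hnf4a and Ahsg, with log2 fold changes of 0.27, 0.14, 0.02 and -0.11. In bulk RNA, fewer cells of a type and less RNA per cell cannot be told apart.

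The promoters below are shown because the members that share a promoter, or a promoter module, can be set beside their counts. They are the 250 bases before the annotated start, 5′ to 3′ on the gene's strand, from RefSeq on GRCm38.p6, whose table had an entry for 8 members. Nlrc5 and Tap2 had no entry, so the motif counts do not cover them. Capitals mark CCAAT on either strand (read as ATTGG when reversed), TGACG on either strand, the core of the cyclic AMP response element, and the core of the interferon-stimulated response element, GAAA, any 2 bases and GAAA.
H2-K1 (chr17:34000348-34000597, minus strand): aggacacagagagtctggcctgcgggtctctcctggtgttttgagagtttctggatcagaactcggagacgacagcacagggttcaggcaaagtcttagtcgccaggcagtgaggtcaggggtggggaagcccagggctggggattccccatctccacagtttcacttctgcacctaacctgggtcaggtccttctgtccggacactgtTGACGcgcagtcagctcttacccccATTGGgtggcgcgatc
H2-D1 (chr17:35262844-35263093, plus strand): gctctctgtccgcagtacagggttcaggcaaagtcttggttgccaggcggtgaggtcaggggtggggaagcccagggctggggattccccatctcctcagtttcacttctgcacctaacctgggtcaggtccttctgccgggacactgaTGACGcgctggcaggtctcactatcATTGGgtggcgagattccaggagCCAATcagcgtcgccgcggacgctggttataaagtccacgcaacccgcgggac
B2m (chr2:122147437-122147686, plus strand): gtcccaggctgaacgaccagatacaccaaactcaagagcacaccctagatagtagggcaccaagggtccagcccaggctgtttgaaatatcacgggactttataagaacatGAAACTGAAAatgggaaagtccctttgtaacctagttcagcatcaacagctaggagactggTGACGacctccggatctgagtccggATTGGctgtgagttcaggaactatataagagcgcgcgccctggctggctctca
Tap1 (chr17:34187306-34187555, plus strand; its reverse strand holds most of the Psmb9 window): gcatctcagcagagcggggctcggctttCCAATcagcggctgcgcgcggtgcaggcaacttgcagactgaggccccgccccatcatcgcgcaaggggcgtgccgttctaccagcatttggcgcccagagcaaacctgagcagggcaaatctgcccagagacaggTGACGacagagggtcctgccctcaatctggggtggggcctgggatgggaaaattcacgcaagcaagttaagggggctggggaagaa

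In the H2-K1, H2-D1 and B2m windows TGACG was followed by ATTGG with exactly 20 bases between them, an arrangement looked for on both strands after the sequences had been seen. It stood in 30 of 32851 promoter windows of that length (0.0913%). Those windows belonged to 26 symbols, among them also the class I gene H2-M3. Of the 20 tested 2 were called higher, 2 lower and 16 not called, against 20.4% higher and 20.7% lower among all tested genes. Both motifs also lie in the Tap1 window, but not at that spacing. Over all windows, CCAAT stood in 33.8% and in 6 of the 8 member promoters, and TGACG in 17.8% and in 5 of them. The interferon-stimulated response element core, in the exact form given above, stood in 2.98% of windows and, among members, in that of B2m. Forms of the element that differ from it were not looked for, so the other promoters cannot be said to lack one. The core of the gamma-activated site, TTCNNNGAA, stood in 7.02% of windows and in that of Psmb8. The decamer bound by p53 stood in 7.13% and in 0 of the 8. With so low a share, 0 of 8 cannot show a shortfall. Looser forms of the decamer and sites outside the windows were not looked for, so the members cannot be said to lack one. A match is a run of letters and no evidence of binding.

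Nlrc5 (ENSMUSG00000074151; GRCm38 chromosome 8, 94434356 to 94527272) reached 58.1 CPM in senescent replicate 1, 77.1 in replicate 2 and 70.2 in replicate 3, while the healthy libraries, in the same order, held 16.3, 14.8 and 22.5 CPM. Every senescent library lay far above every healthy one. Its log2 fold change was 1.94 ± 0.19 (edgeR adjusted p = 1.3e-04), and in 15 alternative settings it ran from 1.81 to 2.24 with an adjusted p of at most 0.0010. Among the partners of the Nlrc5 protein, the RFX subunit gene Rfx5 was called higher (log2 fold change 0.78, edgeR adjusted p = 0.023), while Rfxap and Rfxank were at -0.27 and 0.01 and not called. Of the NF-Y subunit genes Nfya, at 0.68 (edgeR adjusted p = 0.039), and Nfyb, at 0.41 (edgeR adjusted p = 0.042), were called higher and Nfyc, at -0.12, was not called. Creb1 and Atf1, at 0.44 and -0.21, were not called. The calls of Rfx5, Nfya and Nfyb were not followed through the alternative settings.

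Tap1 (ENSMUSG00000037321; chromosome 17, 34187553 to 34197225), an ATP-driven chain of the peptide pump, read 97.8, 96.7 and 94.2 CPM across the senescent libraries, in replicate order, against 33.8, 26.5 and 21.0 CPM in healthy ones. The senescent libraries were nearly level with each other and the groups did not overlap. The log2 fold change was 1.83 ± 0.17 (edgeR adjusted p = 1.1e-04), from 1.67 to 2.14 over the 15 alternatives. Tap2 (ENSMUSG00000024339; 34203527 to 34216321), its partner chain, had 42.2, 43.8 and 40.9 CPM in senescent libraries, against 36.0, 43.0 and 35.5 CPM in healthy ones. Those groups overlapped, and its log2 fold change of 0.15 ± 0.12 was not called (edgeR adjusted p = 0.33). The ratio of Tap1 to Tap2 counts within a library, which no scaling can move, was 2.21 to 2.32 in senescent and 0.593 to 0.936 in healthy libraries.

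Psmb9 (ENSMUSG00000096727; 34181987 to 34187764) lies on the opposite strand to Tap1. By the RefSeq starts 225 bases lie between them, and both are read outwards from the promoter printed above. In GENCODE, the source of the gene coordinates given here, the ends of Psmb9 and Tap1 reach past each other and their exons overlap by 212 bases. Psmb9 had 17.5, 18.7 and 15.9 CPM in senescent libraries, against 20.1, 16.0 and 13.5 CPM in healthy ones. The groups overlapped (log2 fold change 0.07 ± 0.16, edgeR adjusted p = 0.76), in contrast to its neighbour. Counts of Tap1 were 5.18 to 5.93 times those of Psmb9 in senescent libraries and 1.55 to 1.68 times in healthy ones, a change of 3.42-fold in that ratio. In an exact two-sided permutation test p was 0.1, the smallest that 3 against 3 libraries can give, and 0.11 adjusted over the 9 ratios between genes that were compared.

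**Figure D1:**
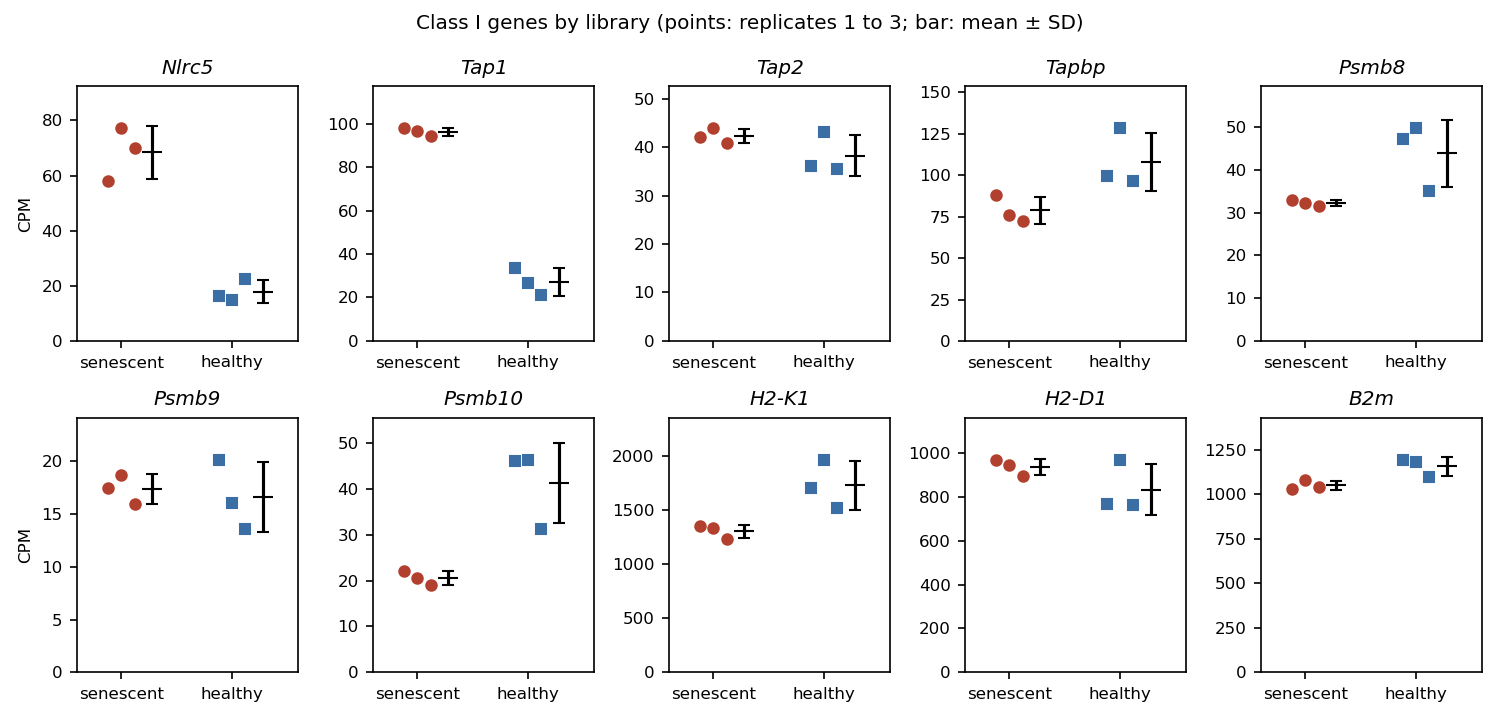
CPM (vertical axes, from 0) of each class I gene in the 3 senescent (circles) and 3 healthy (squares) libraries, with mean ± SD beside the points. Nlrc5 and Tap1 stand apart upward in senescent libraries and Psmb10 downward, while the points of Tap2, Psmb9 and H2-D1 overlap between groups.

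Psmb10 (ENSMUSG00000031897; chromosome 8, 105935735 to 105938444), whose product replaces that of Psmb7, read 22.1, 20.6 and 19.0 CPM across the senescent libraries, against 46.1, 46.2 and 31.1 CPM in healthy ones. All senescent libraries lay below all healthy ones, and healthy replicate 3 was the lowest of its group. The log2 fold change was -1.003 ± 0.17 (edgeR adjusted p = 0.0021) and stayed called in each of the 15 alternatives, from -1.17 to -0.69. Psmb8 (ENSMUSG00000024338; chromosome 17, 34197721 to 34201454), whose product replaces that of Psmb5, had 32.9, 32.3 and 31.6 CPM in senescent libraries, against 47.2, 49.7 and 35.03 CPM in healthy ones. It was lower without overlap, at -0.45 ± 0.14 (edgeR adjusted p = 0.036). That call was lost when any senescent library was left out (adjusted p = 0.082 without replicate 1, 0.11 without replicate 2 and 0.14 without replicate 3), and likewise without healthy replicate 1 (0.081) or 2 (0.11).

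Of the constitutive partners, Psmb5 averaged 76.0 ± 7.65 CPM in senescent and 77.2 ± 7.56 CPM in healthy libraries, Psmb6 106 ± 9.86 and 120.1 ± 17.8 CPM and Psmb7 130.0 ± 8.40 and 151 ± 16.4 CPM, and none of the 3 was called. The ratio of Psmb10 to Psmb7 was 0.155 to 0.162 in senescent and 0.214 to 0.332 in healthy libraries. That of Psmb8 to Psmb5 was 0.402 to 0.471 in senescent and 0.476 to 0.655 in healthy libraries, a narrow gap, and other genes share 54.1% of the 50-base stretches of Psmb5, Gm3375 the most at 46.8%. That of Psmb9 to Psmb6 overlapped, at 0.150 to 0.176 in senescent and 0.114 to 0.177 in healthy libraries. The mean of the 3 log2 ratios was -2.17 ± 0.05 in senescent and -1.86 ± 0.27 in healthy libraries (SD, n = 3 each), a difference of -0.31 (exact two-sided permutation test, p = 0.1, the smallest possible). Without healthy replicate 1 the difference was -0.16. Among the 14 genes of the constitutive core 3 fell and 0 rose, 21.4% called against 41.1% of all tested genes (20.4% higher, 20.7% lower). Their median was -0.21. The fallen genes were Psma5 at -0.53 ± 0.11 (edgeR adjusted p = 0.0071), Psmb3 at -0.42 ± 0.13 (0.029) and Psma7 at -0.39 ± 0.12 (0.030). All 3 of these calls were lost without senescent replicate 3 (0.058 to 0.17), those of Psmb3 and Psma7 also without senescent replicate 2 (0.079 and 0.15) or healthy replicate 2 (0.095 and 0.093), and that of Psmb3 without senescent replicate 1 (0.072).

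Tapbp (ENSMUSG00000024308; 33915899 to 33929292) had 88.2, 76.2 and 72.4 CPM in senescent libraries, against 99.6, 128 and 96.4 CPM in healthy ones. Tapasin transcripts were thus lower in every senescent library, at -0.45 ± 0.14 (edgeR adjusted p = 0.035), although the gap between the groups was small. The call was lost on leaving out senescent replicate 2 (0.14), senescent replicate 3 (0.17) or healthy replicate 2 (0.11), and an antisense gene, Gm19412, overlaps 24.9% of its exonic length, so that the reads are uncertain where the strand setting is not given.

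H2-K1 (ENSMUSG00000061232; 33996017 to 34000347) read 1352, 1333 and 1238 CPM across the senescent libraries, against 1709, 1967 and 1518 CPM in healthy ones. Its groups did not overlap, but the log2 fold change of -0.40 ± 0.15 missed the threshold (edgeR adjusted p = 0.059); DESeq2 called it lower (adjusted p = 0.016), as did edgeR with upper quartile factors (0.048) or without healthy replicate 3 (0.037). H2-D1 (ENSMUSG00000073411; 35262730 to 35267499) had 967, 944 and 893 CPM in senescent libraries, against 767, 965 and 763 CPM in healthy ones. There healthy replicate 2 reached the senescent level and the change was 0.17 ± 0.14 (edgeR adjusted p = 0.38). The heavy chains therefore lay on opposite sides of 0: H2-K1 counts were 1.39 to 1.41 times those of H2-D1 in senescent libraries and 1.99 to 2.23 times in healthy ones, groups well apart against their spread (exact two-sided permutation test, p = 0.1, the smallest possible; 0.11 over the 9 ratios).

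Class I heavy chains are near-identical in places, and other genes hold 9.6% of the 50-base stretches of H2-K1 transcripts (H2-Q10 the most, 5.2%) and 12.8% of those of H2-D1 (H2-Q1 the most, 5.9%), so the split between them is uncertain, the more so in a strain of another haplotype than the reference. Summed over the 19 class I heavy chain genes with counts, the total was 4925 ± 178 CPM in senescent and 5742 ± 556 CPM in healthy libraries, a change of -0.22 ± 0.16 that was not called (edgeR adjusted p = 0.29). H2-K1 and H2-D1 made up 45.5% of that sum in senescent and 44.5% in healthy libraries. B2m (ENSMUSG00000060802; chromosome 2, 122147686 to 122153083), the light chain of every class I molecule, had 1028, 1080 and 1039 CPM in senescent libraries, against 1192, 1178 and 1097 CPM in healthy ones. It was lower without overlap but by little, at -0.14 ± 0.13 (edgeR adjusted p = 0.40). Non-overlap itself was common, being found for 54% of all tested genes (26.8% higher, 27.2% lower) and for 7 of the 10 members, 2 higher and 5 lower. Nlrc5 counts were 0.0565 to 0.0714 of those of B2m in senescent libraries and 0.0126 to 0.0205 in healthy ones.

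**Figure D2:**
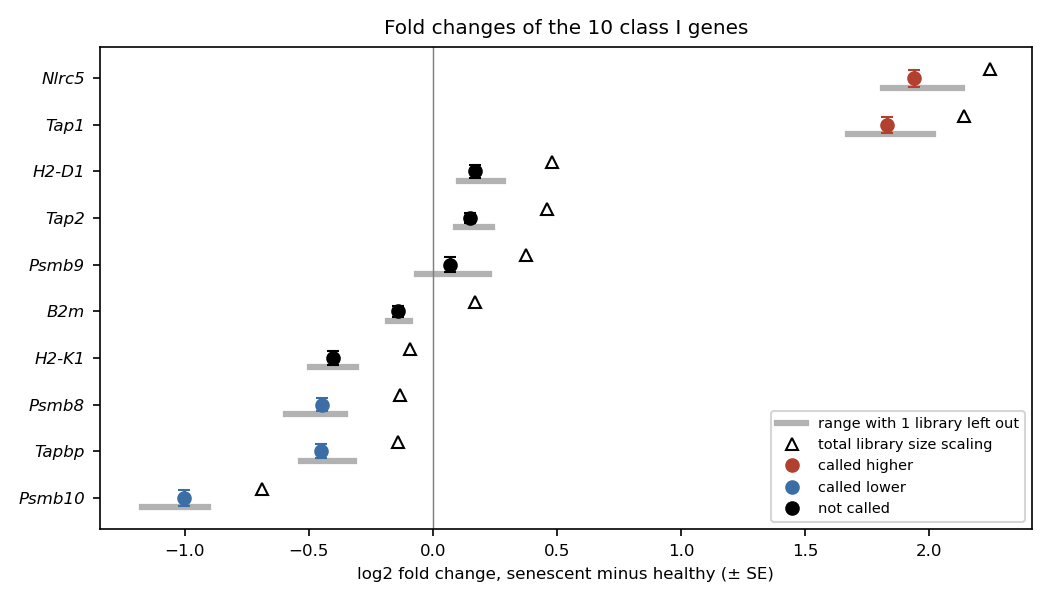
Log2 fold changes, senescent minus healthy, of the 10 class I genes (circles, ± SE; red called higher, blue called lower, black not called), with the range when 1 library is left out (grey bars) and the value under total library size scaling (triangles). Nlrc5 and Tap1 lie near 1.9, 7 genes lie between -0.45 and 0.17, and Psmb10 lies lowest.

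Scaling sets where the smaller changes fall. Scaled by total counts alone (total library size), the tested genes had a median log2 fold change of 0.33, against 0.01 under TMM, and changes here are relative to TMM. On that scale Tap2 (log2 fold change 0.46, edgeR adjusted p = 0.012) and H2-D1 (0.48, 0.022) were called higher as well, Tapbp and Psmb8 were no longer called (adjusted p = 0.44 and 0.46), and B2m turned to 0.17. Nlrc5, Tap1 and Psmb10 kept their direction and their calls. Under TMM the CPM of the 10 genes summed to 3514 to 3722 in senescent and 3632 to 4434 in healthy libraries, which overlapped (difference -364, exact two-sided permutation test, p = 0.3). Under total library size that difference turned to 460.0 CPM, higher in senescent libraries (exact p = 0.1, the smallest possible).

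Per length of annotated exon (RPKM, CPM per kilobase), the members spanned a wide range. B2m was the most abundant, at 1220 ± 31.7 RPKM in senescent and 1344 ± 59.6 RPKM in healthy libraries, followed by H2-K1 at 445 ± 20.8 and 589 ± 76.7 RPKM and H2-D1 at 362 ± 14.7 and 322 ± 44.8 RPKM. Tapbp had 21.8 ± 2.28 RPKM in senescent and 29.8 ± 4.84 RPKM in healthy libraries. In senescent libraries Tap1 came next at 17.6 ± 0.331 RPKM, ahead of Psmb10 (12.0 ± 0.911), Tap2 (11.2 ± 0.393), Psmb8 (9.54 ± 0.194), Nlrc5 (8.06 ± 1.13) and Psmb9 (4.74 ± 0.378). Psmb10 and Tap2 did not differ beyond their spread there. In healthy libraries Psmb10 (24.1 ± 5.10 RPKM) stood beside Tapbp, then came Psmb8 (13.0 ± 2.32), Tap2 (10.1 ± 1.12), Tap1 (4.95 ± 1.17), Psmb9 (4.52 ± 0.901) and Nlrc5 (2.10 ± 0.482). Tapbp and Psmb10 were not apart beyond their spread there, nor were Psmb8 and Tap2, nor Tap1 and Psmb9. The lengths join all annotated isoforms and can understate genes with rare long ones.

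**Figure D3:**
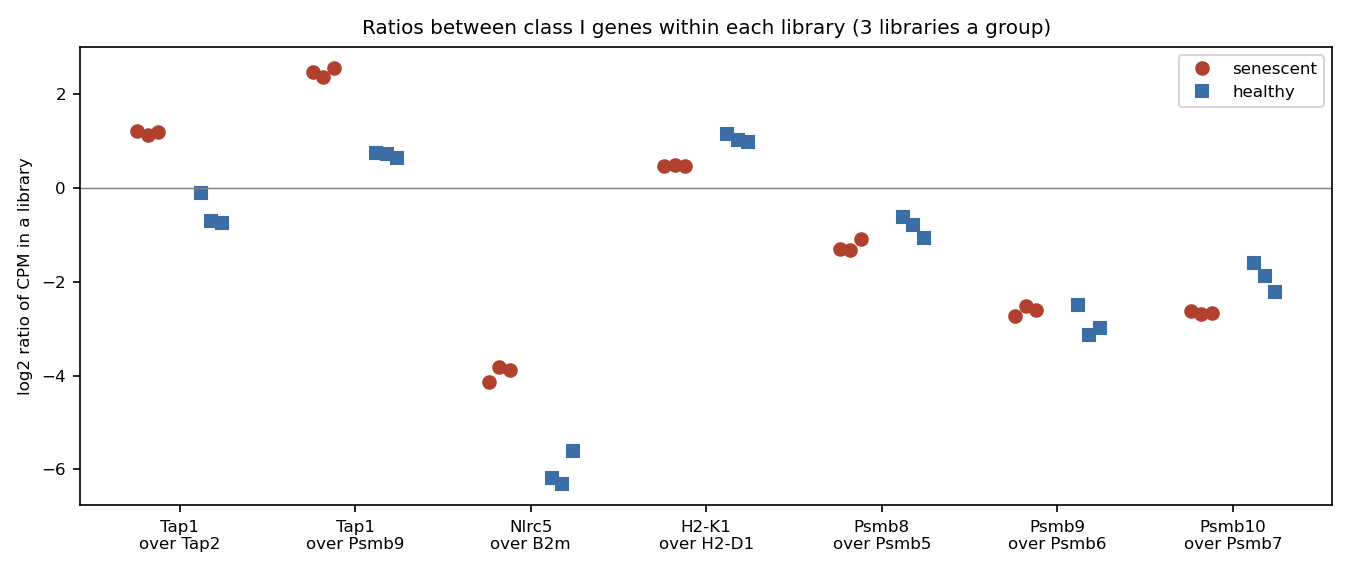
Log2 ratios of the CPM of 2 genes within each library (circles senescent, squares healthy). The Tap1 to Tap2, Tap1 to Psmb9 and Nlrc5 to B2m ratios are higher in all senescent libraries, the H2-K1 to H2-D1 and Psmb10 to Psmb7 ratios lower, and the Psmb9 to Psmb6 ratios overlap.

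Of the members, 7 lie on chromosome 17 in the MHC, between 33915899 and 35267499. In that segment 70 genes were tested, 6 were called higher and 9 lower, with a median of -0.06. That is 21.4% called, below the 41.1% of all tested genes (20.4% higher, 20.7% lower). A single gene there had a larger rise than Tap1, Vwa7 at 3.05 (edgeR adjusted p = 0.0028), whose CPM averaged 0.726 in senescent and 0.0849 in healthy libraries. Psmb9, Tap1, Psmb8 and Tap2 stand next to each other with no other gene of the table between them, and within those 4 neighbours Tap1 rose, Psmb8 fell and the remaining pair was not called.

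The steps around the members were read from lists of pathway genes. The background for their calls was 41.1% of all tested genes, 20.4% higher and 20.7% lower. Called were 25% of the loading and folding list and 62.5% of the peptidase list. Among 8 genes of peptide loading and folding in the endoplasmic reticulum 2 rose and 0 fell: Canx, the chaperone calnexin, averaged 698 ± 19.8 CPM in senescent and 397 ± 32.7 CPM in healthy libraries (log2 fold change 0.81 ± 0.12, edgeR adjusted p = 0.0015), and the folding sensor gene Uggt1 109 ± 7.04 and 77.9 ± 6.05 CPM (adjusted p = 0.0096). Tapbpl, a relative of tapasin, was at -0.26 and the loading partners Calr and Pdia3 at 0.05 and 0.20, not called. Among 8 peptidase genes 3 rose and 2 fell. The cytosolic aminopeptidase gene Npepps averaged 70.8 ± 6.39 CPM in senescent and 26.6 ± 1.605 CPM in healthy libraries (1.41 ± 0.12, edgeR adjusted p = 5.9e-05), Lnpep, an endosomal aminopeptidase gene, 25.4 ± 1.82 and 14.3 ± 0.472 CPM (adjusted p = 7.0e-04) and Nrd1 135 ± 5.79 and 84.3 ± 5.20 CPM (adjusted p = 0.0016). Erap1, which trims peptides in the endoplasmic reticulum, fell to 63.3 ± 4.81 CPM in senescent cells, against 87.5 ± 13.6 CPM in healthy ones (adjusted p = 0.025; without senescent replicate 1, 2 or 3 it was 0.11, 0.073 and 0.095), and Lap3, a cytosolic leucine aminopeptidase gene, to 210 ± 20.5 CPM, against 315 ± 33.3 CPM (adjusted p = 0.0092, and 0.053 without senescent replicate 3).

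Proteasome activator and assembly genes moved both ways, 2 of 10 up and 2 down. That is 40% called, against 41.1% of all tested genes (20.4% higher, 20.7% lower). Psmf1, which encodes the proteasome inhibitor PI31, averaged 99.0 ± 7.98 CPM in senescent and 22.9 ± 1.58 CPM in healthy libraries, at 2.11 ± 0.12 (edgeR adjusted p = 7.2e-06), a larger rise than that of any member. Psme4, the PA200 activator gene, was at 0.50 ± 0.12 (adjusted p = 0.0098), and the assembly chaperone genes Psmg1 and Psmg3 were at -0.61 ± 0.12 and -0.73 ± 0.15 (adjusted p = 0.0046 and 0.0062). Psme1 and Psme2, the interferon-inducible PA28 activator genes, were at -0.24 and -0.36 and not called. Of 13 genes of transport out of the endoplasmic reticulum and of turnover there, 23.1% were called, below that background. The coat genes Sec23a and Sec24b rose, at 0.71 ± 0.16 and 0.56 ± 0.11 (edgeR adjusted p = 0.0082 and 0.0040), and the GTPase gene Sar1b fell, at -0.84 ± 0.11 (5.8e-04).

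Among non-classical and class I-like genes 18 were tested, 2 rose and 5 fell, with a median of -0.25. That is 38.9% called, against 41.1% of all tested genes (20.4% higher, 20.7% lower). H2-Q6 averaged 97.9 ± 5.75 CPM in senescent and 62.9 ± 18.7 CPM in healthy libraries and H2-Q7 203 ± 7.22 and 141 ± 30.8 CPM (edgeR adjusted p = 0.034 and 0.035), calls lost without senescent replicate 2 (0.066 and 0.067) or 3 (0.057 and 0.071), and for H2-Q6 also without senescent replicate 1 (0.055) or healthy replicate 2 (0.091). H2-Q6 shares 34.97% and H2-Q7 26.5% of their 50-base stretches with other genes. The lipid-presenting genes Cd1d1 and Cd1d2 fell to 159 ± 25.4 and 9.67 ± 1.03 CPM in senescent libraries, against 334 ± 22.5 and 21.5 ± 0.404 CPM in healthy ones (adjusted p = 8.1e-04 and 2.2e-04), and are close paralogs. Fcgrt, the heavy chain of the neonatal Fc receptor, which also pairs with B2m, fell to 70.5 ± 12.6 CPM, against 176 ± 15.04 CPM (-1.32 ± 0.15, edgeR adjusted p = 3.2e-04). One member of that list, H2-Ke6, is a dehydrogenase gene named for its place in the MHC and was not called.

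**Figure D4:**
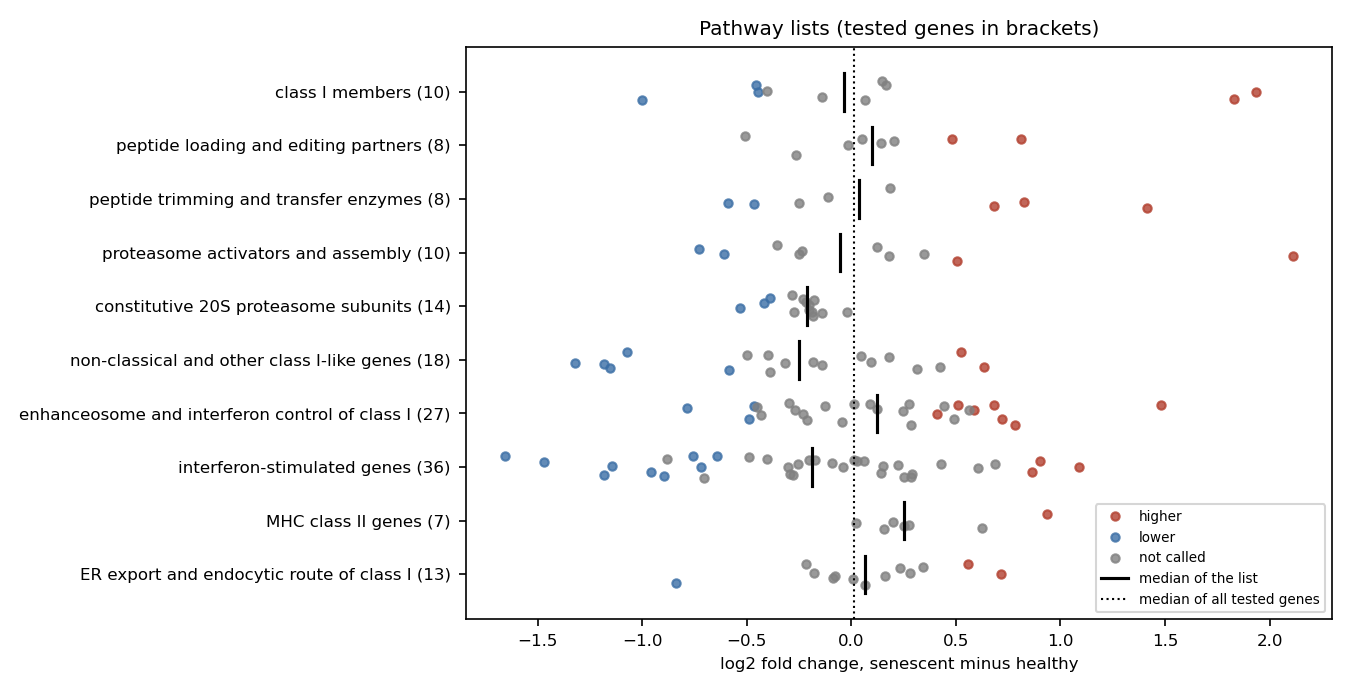
Log2 fold changes, senescent minus healthy, of tested genes in each pathway list (red called higher, blue called lower, grey not called), with the list's median (black bar) and the median of all tested genes (dotted line). The class I members spread about a median of -0.04, and the interferon-stimulated genes hold 3 called higher and 9 called lower.

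Genes that control the pathway and its interferon input were mixed. Of 27 tested, 7 rose and 3 fell, 37% called against 41.1% of all tested genes (20.4% higher, 20.7% lower). The median was 0.12. Ifngr2, a chain of the interferon-gamma receptor, averaged 37.5 ± 2.27 CPM in senescent and 13.4 ± 1.69 CPM in healthy libraries (1.48 ± 0.13, edgeR adjusted p = 7.1e-05), the NF-kappaB subunit gene Rela 76.8 ± 1.95 and 46.6 ± 4.75 CPM (adjusted p = 0.0017) and the kinase gene Tyk2 37.0 ± 0.681 and 24.7 ± 0.565 CPM (adjusted p = 0.0019). Ifnar2, a chain of the type I interferon receptor, fell to 25.0 ± 3.39 CPM, against 43.3 ± 2.72 CPM (adjusted p = 0.0018). Stat2 and Irf9, which act together downstream of it, were at -0.49 ± 0.11 and -0.46 ± 0.13 (adjusted p = 0.0084 and 0.024), Irf9 losing its call on leaving out senescent replicate 2 (0.13), senescent replicate 3 (0.15), healthy replicate 1 (0.051) or healthy replicate 2 (0.054). Irf1, a transcription factor gene induced by interferon-gamma, was at -0.04 and not called.

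Of 36 interferon-stimulated genes 9 fell and 3 rose, 33.3% called, with a median of -0.19. The chemokine gene Cxcl9 fell to 3.17 ± 0.930 CPM in senescent libraries, against 10.0 ± 1.54 CPM in healthy ones (-1.66 ± 0.24, edgeR adjusted p = 0.0011), and the interferon-inducible GTPase genes Ifi47 and Iigp1 to 8.89 ± 2.25 and 209 ± 6.66 CPM, against 19.6 ± 3.50 and 353 ± 80.1 CPM (adjusted p = 0.0033 and 0.0081). The RNA sensor gene Ifih1 averaged 57.2 ± 1.37 CPM in senescent and 31.4 ± 3.71 CPM in healthy libraries, Ifi35 45.5 ± 0.509 and 24.4 ± 3.43 CPM (adjusted p = 8.5e-04 and 9.0e-04) and Oas2, at a low 2.13 ± 0.772 and 1.00 ± 0.332 CPM, was called at 0.048, a call lost on leaving out senescent replicate 1 (0.13), senescent replicate 3 (0.13), healthy replicate 1 (0.11) or healthy replicate 3 (0.12). Of all tested genes 41.1% were called, 20.4% higher and 20.7% lower. The 9 lower calls among 36 genes were thus near the background share, and the 3 higher calls were below it.

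Several of these calls depended on scaling. Under total library size the lower calls of Psma5, Psmb3 and Psma7 (edgeR adjusted p = 0.15, 0.49 and 0.63), Erap1 and Lap3 (0.37 and 0.10), Psmg1 and Psmg3 (0.082 and 0.055), Stat2 and Irf9 (0.22 and 0.39) and Iigp1 (0.059) were lost. With upper quartile factors the higher calls of H2-Q6 and H2-Q7 (0.055 and 0.059), Oas2 (0.060) and the class II protease gene Ctss (0.051) were lost.

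Other cells in the preparations also carry class I transcripts, and their markers varied between libraries. The 15 macrophage and Kupffer cell markers, of which Cd5l and Clec4f were the most abundant, summed to 250 to 504 CPM in senescent and 102 to 274 CPM in healthy libraries, with means of 381 ± 127 CPM in senescent and 203 ± 90.0 CPM in healthy ones (SD, n = 3 each). All 15 had a positive log2 fold change, with a median of 0.91. By edgeR 2 were called higher and 0 lower, against 20.4% of all tested genes called higher, and 10 were higher at an unadjusted p under 0.05. The ranges of the sums overlapped. Healthy replicate 3 was the lowest healthy library for these markers and for 9 of the 10 class I genes, Tap1 among them and Nlrc5 the exception. The 13 T and NK cell markers found in the table summed to 0.816 to 1.22 CPM in senescent and 0.283 to 1.75 CPM in healthy libraries, Cd4 and Lck leading, and 0 of them had enough counts to be tested. MHC class II genes summed to 68.5 to 88.0 CPM in senescent and 22.7 to 104.0 CPM in healthy libraries. Of the 7 class II pathway genes tested 1 rose, the protease gene Ctss (edgeR adjusted p = 0.038), a call lost on leaving out senescent replicate 1 (0.069), senescent replicate 3 (0.12), healthy replicate 1 (0.054) or healthy replicate 3 (0.056).

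Stellate cell markers summed to 30.2 to 44.7 CPM in senescent and 12.0 to 20.0 CPM in healthy libraries, with 5 of 10 tested called higher and 0 lower, Dcn and Reln the most abundant. Of all tested genes 20.4% were called higher. Sinusoidal endothelial markers, led by Stab2 and Clec4g, summed to 145 to 187 CPM in senescent and 121 to 157 CPM in healthy libraries (2 of 11 called higher, 0 lower). The 11 B and dendritic cell markers, led by Ighm and Zbtb46, summed to 7.08 to 11.5 CPM in senescent and 5.73 to 16.4 CPM in healthy libraries, and the 8 cholangiocyte markers, led by Spp1 and Sox9, to 11.9 to 16.7 and 4.88 to 8.12 CPM. Of the cholangiocyte markers 3 of 5 tested were called higher and 0 lower, and of the B and dendritic cell markers 1 of 4 higher and 0 lower. Among the markers Cd8b1, Klrb1c, Ncr1, Acta2 and Tff2 were at 0 in all 3 healthy libraries, and none was at 0 in all 3 senescent ones. These markers were near the floor in senescent libraries too, and none had enough counts to be tested. Their highest value was 0.174 CPM, for Klrb1c in senescent replicate 3, where 3 reads make 0.0868 CPM. The part of these cells in the rise of Nlrc5 and Tap1 was not tested. Without healthy replicate 3, Nlrc5 and Tap1 were called with Psmb10, Psmb8, Tapbp and H2-K1 on the lower side, 4 members in place of 3.

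**Figure D5:**
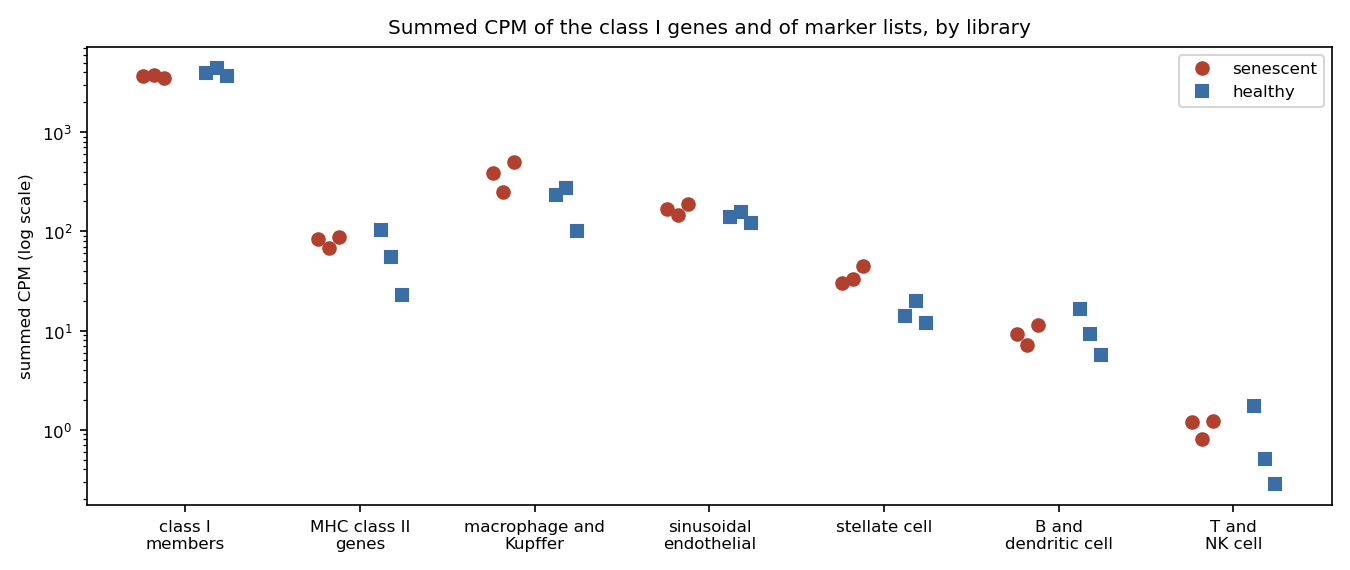
Summed CPM (log scale) of the 10 class I genes and of marker lists in each library (circles senescent, squares healthy). The class I sums lie between 3514 and 4434 CPM in all libraries, and the macrophage and class II sums are lowest in healthy replicate 3.

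Likeness of pattern was measured as the root mean square distance, over 6 libraries, between a gene's centred log2 CPM and the median profile of the members. That median profile was nearly flat, and the genes outside the pathway closest to it, Slc25a28, Mlf2, Ncln, Ninj1 and Rtraf, lay 0.0168 to 0.0334 away with log2 fold changes of -0.06 to -0.02. B2m was the nearest member, at 0.0725, whereas Tap1 and Nlrc5 were the farthest, at 0.961 and 1.04, and Psmb10 lay at 0.480.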

How the data were processed

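Polyadenylated RNA of isolated hepatocytes was sequenced in 3 senescent and 3 healthy samples. The authors deposited 1 table of read counts per gene, raw whole numbers, and the submitters' processing notes name cutadapt 1.16, the aligner STAR 2.7.1a, the counter featureCounts, DESeq2 1.34.0 and the build GRCm38, with no settings. The sources used here give neither the annotation release nor the strand setting. Of the 6 columns, 5 bear a sample's exact code, and the remaining one was taken as healthy replicate 2, whose code differs by a letter. Symbols were found for 99.7% of IDs; coordinates, exonic lengths and 50-base stretches come from GENCODE M21 on GRCm38 and promoters from RefSeq on GRCm38.p6.

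Counts were tested with edgeR 4.0.16 in R 4.3.3 (filterByExpr, minimum count 10 and minimum total 15; TMM; quasi-likelihood F test, two-sided), with p-values adjusted by Benjamini-Hochberg over 12949 genes. The SE is the log2 fold change over the square root of F. Ratios and sums were compared by exact permutation tests. Tested on counts simulated for the 12949 genes of this comparison, the fit called 71% of genes given a 2-fold change, 98% of those given a 4-fold change and 6 unchanged genes. Few genes were changed there, as many up as down, so the simulation does not test scaling where many genes change. No 2 libraries were copies of each other. Alternatives were DESeq2 1.42.0, limma-voom (limma 3.58.1), other scalings and filters, an adjusted p under 0.01, a replicate block and each library left out; summing the class I heavy chain genes was an alternative chosen after seeing the data. The members and gene lists were chosen with earlier results of these data known. Genes named beside the members were up to 3 higher and 3 lower calls of smallest p per list, the most abundant markers and the 5 nearest profiles; further partners, and Vwa7, were named after their values were seen.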

Additional observations from a re-analysis of the deposited data

How the results depend on the processing

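The rises of Nlrc5 and Tap1 and the fall of Psmb10 kept their calls in 15 settings, and the other fallen members did not. Total library size gave 4 members higher and 1 lower, 4861 genes higher and 1285 lower in all, and a positive difference of 460.0 in the members' summed CPM (exact permutation p = 0.1), against -364 with TMM. An adjusted p under 0.01 left 1 member lower, and 1570 genes higher and 1498 lower in all. With 1 library left out, 2 members stayed higher and 1 to 4 were lower, 1836 to 2691 genes were higher and 1489 to 2789 lower, the immunoproteasome difference ran from -0.42 to -0.16 and that of the summed CPM from -554 to -153. Without healthy replicate 2, the library placed by a near match of its code, 2 members were higher and 1 lower.

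Signs turned in these cases, and no value of turned sign was called. Sox9 kept its sign and was called at -0.86 without senescent replicate 1 (edgeR adjusted p = 0.043). Total library size gave log2 fold changes of 0.17 for B2m, 0.11 for Sox9, 0.20 for Ahsg, 0.29 for Psmb5, 0.13 for Psmb6, 0.092 for Psmb7, 0.27 for Slc25a28, 0.25 for Mlf2, 0.28 for Ncln, 0.26 for Ninj1 and 0.29 for Rtraf. With 1 library left out the log2 fold change ran from -0.064 to 0.22 for Psmb9, -0.078 to 0.28 for Stab2, -0.099 to 0.24 for Clec4g, -0.86 to 0.15 for Sox9, -0.075 to 0.099 for Psmb5, -0.12 to 0.028 for Slc25a28, -0.13 to 0.017 for Mlf2, -0.093 to 0.044 for Ncln and -0.084 to 0.060 for Rtraf, with the lowest Psmb9 value without healthy replicate 3. The sum of heavy chain genes, which also holds H2-K1 and others, was at -0.22 where H2-D1 alone was at 0.17. That sum is a different quantity, and H2-D1 itself stayed positive in the other settings. The cause of the turned signs was not tested.

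Replicate numbers did not pair the samples: same-numbered libraries had correlations of their deviations of 0.22, -0.16 and -0.05. With the replicate block 2 members were higher and 3 lower, as without it, and 2576 genes were higher and 2625 lower in all; Ctss (adjusted p = 0.064), Oas2 (0.097), Alb (0.055) and Zbtb46 (0.070) were no longer called. The call of Alb was also lost without senescent replicate 1 (0.084), 2 (0.064) or 3 (0.060). That of Zbtb46 was also lost with upper quartile factors (0.052), with no filter on low counts (0.053), and on leaving out any library but senescent replicate 3 (0.065 to 0.091). An adjusted p under 0.01 ended both. The paired differences were -0.31 for the immunoproteasome ratio and -364 for the summed CPM. The smallest member counts in a library were 380 reads for Nlrc5 and 383 for Psmb9.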
